A study of Homo sapiens with 2 samples.

Results

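Binding of the transcription factor MYBL2 was examined at the 8 genes that encode the inhibitors of the cell cycle kinases. The set comprised the 4 INK4 family genes CDKN2A, CDKN2B, CDKN2C and CDKN2D, the 3 CIP/KIP family genes CDKN1A, CDKN1B and CDKN1C, and the phosphatase gene CDKN3, out of 38690 protein-coding and long noncoding RNA (lncRNA) genes annotated by GENCODE. The genes were taken by family membership and name, and the rule itself used no measured value, although earlier results of these data were known when the set was chosen. A peak was assigned to a gene when it overlapped 1000 bp either side of any of its transcription start sites (TSSs), which is called a promoter peak here. All coordinates are hg19 and counted from 1.

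The data came from chromatin immunoprecipitation followed by sequencing (ChIP-seq) in wild-type A673 cells, an established Ewing sarcoma line driven by a fusion of EWSR1 with FLI1. The series held 1 library made with an antibody that the labels describe as anti-MYBL2, and which the study's methods describe as recognising the phosphorylated, activated protein, and 1 input library, DNA of the same cell line sequenced with no antibody step. The authors called peaks in the former against the latter. With 1 library per group no difference was tested, and all intervals below cover counting error only.

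The inhibitors act as brakes on the kinases that drive the cell cycle. INK4 proteins bind CDK4 and CDK6 and keep them from D-type cyclins, whereas CIP/KIP proteins bind cyclin-CDK complexes more broadly, including those of CDK2. CDKN3 differs from both families, being a phosphatase that removes an activating phosphate from CDK2. MYBL2 is a proliferation factor that joins the MuvB complex on promoters of genes used in the G2 phase and mitosis, many of which carry the element known as CHR. Losses of the CDKN2A locus on chromosome 9 are a recurrent finding in cell lines of this tumour, so the region around CDKN2A and CDKN2B was also examined on a larger scale.

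To show the DNA under the peaks, 120 bases of the GRCh37 reference are given for 7 of the genes. For CDKN2D, CDKN2C, CDKN3 and CDKN1A they contain the summit of the strongest promoter peak. For CDKN1B, whose summit lies further into the transcribed leader, and for CDKN2A and CDKN2B, which had no promoter peak, they lie at the TSS of the canonical transcript. Each is written 5′ to 3′ in the direction of transcription, and capitals mark matches to the motifs searched, on either strand.
CDKN2D, chr19:10679895-10680014, minus strand: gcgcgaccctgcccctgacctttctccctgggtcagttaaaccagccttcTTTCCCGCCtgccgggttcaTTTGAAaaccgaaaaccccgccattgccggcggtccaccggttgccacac
CDKN2C, chr1:51425927-51426046, plus strand: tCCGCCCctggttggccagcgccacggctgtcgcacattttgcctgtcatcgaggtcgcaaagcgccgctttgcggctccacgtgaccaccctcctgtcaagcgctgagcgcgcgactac
CDKN1B, chr12:12870212-12870331, plus strand: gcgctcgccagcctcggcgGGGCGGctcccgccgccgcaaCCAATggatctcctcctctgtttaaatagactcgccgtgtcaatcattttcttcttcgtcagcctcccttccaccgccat
CDKN3, chr14:54863607-54863726, plus strand: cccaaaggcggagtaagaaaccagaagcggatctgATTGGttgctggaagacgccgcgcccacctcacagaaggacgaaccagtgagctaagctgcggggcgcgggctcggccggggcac
CDKN1A, chr6:36646397-36646516, plus strand: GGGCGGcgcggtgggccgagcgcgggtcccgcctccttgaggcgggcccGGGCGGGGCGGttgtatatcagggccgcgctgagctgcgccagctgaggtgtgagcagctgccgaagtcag
CDKN2B, chr9:22009275-22009394, minus strand: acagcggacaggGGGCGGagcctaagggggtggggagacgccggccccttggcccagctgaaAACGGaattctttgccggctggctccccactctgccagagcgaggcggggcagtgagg
CDKN2A, chr9:21974836-21974955, minus strand: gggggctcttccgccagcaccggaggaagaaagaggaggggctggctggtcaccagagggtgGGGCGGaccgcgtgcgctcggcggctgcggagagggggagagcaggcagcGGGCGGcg

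The window of CDKN2D held the letters of an E2F site followed downstream by those of a CHR element. Their centres lay 4 bp and 13 bp from the peak summit. CDKN2D was the only one of the 5 genes with a promoter peak that had a CHR match within 50 bp of a promoter summit, a match found at 3.32% of 10161 best promoter peaks of protein-coding genes. An E2F match was also present 32 bp from the summit of the second of the CDKN2C promoter peaks, and 4.12% of all best promoter peaks held one.

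The letters AACGG, the only form of the MYB core searched, occurred within 50 bp of 0 of the 8 promoter summits. They occurred within 100 bp of 0 of them, and other forms of the core could be present. Across all best promoter peaks the shares were 11.1% and 19.9%. Conversely, the CDKN2B window carries such a match although the gene had no peak. The same letters were present in 9.7% of 19819 protein-coding TSS windows of this length. The CCAAT box, a site of the factor NF-Y, was absent within 50 bp of the 8 summits and present within 100 bp of 4, in CDKN2C, CDKN2D, CDKN1B and CDKN3, at distances of 56 to 70 bp. Over all best promoter peaks the shares were 9.74% and 19.7%. The GC box, bound by SP1-type factors and searched as GGGCGG, was found within 50 bp of 1 of the 8 summits, against 29.3% of all best promoter peaks, and within 100 bp of 6 of the 8, against 51.9%. No ETS core, searched as CCGGAAGT, was found within 100 bp of any of the 8 summits, and 6.61% of all best promoter peaks held one. The 8 summits include those of weaker promoter peaks, whereas the shares count best promoter peaks only. At the best summits of the 5 genes, the GC box was found at 0 within 50 bp and at 4 within 100 bp. The CCAAT box was found at 0 and 3 of these 5. All these matches describe letters in a window and do not show occupancy of a site.

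MYBL2 promoter peaks were found at 5 of the 8 inhibitor genes, namely CDKN2C, CDKN2D, CDKN1A, CDKN1B and CDKN3. CDKN2A, CDKN2B and CDKN1C had none. By family, 2 of 4 INK4 genes and 2 of 3 CIP/KIP genes had a peak. The share of 62.5% lay near that of protein-coding genes in general, of which 59.4% had a promoter peak, against 41.9% when lncRNA genes were included. All 8 genes have CpG-rich promoters (observed to expected CpG ratio of at least 0.6 within 500 bp of the canonical TSS), and among CpG-rich protein-coding promoters the share with a peak was 79.1%. A share this close to the background is not a result about the inhibitor genes.

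The strength of a peak is given as the authors' fold enrichment, the ratio of fragments piled up at the summit to the local background, each plus 1. The best promoter peaks of the 5 genes ranged from 7.75 at CDKN1A to 23.4 at CDKN2C, with a median of 10.07, against a median of 8.67 over the 11941 protein-coding genes with a promoter peak. A promoter peak with a fold enrichment of at least 5 was present at 5 of the 8 genes (62.5%) and at 49.6% of all protein-coding genes. The counting interval of the CDKN2C peak did not overlap that of any other gene's best peak. The intervals of CDKN2D, CDKN1B, CDKN3 and CDKN1A all overlapped one another, so the order of those 4 was not resolved at this depth.

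**Figure D1:**
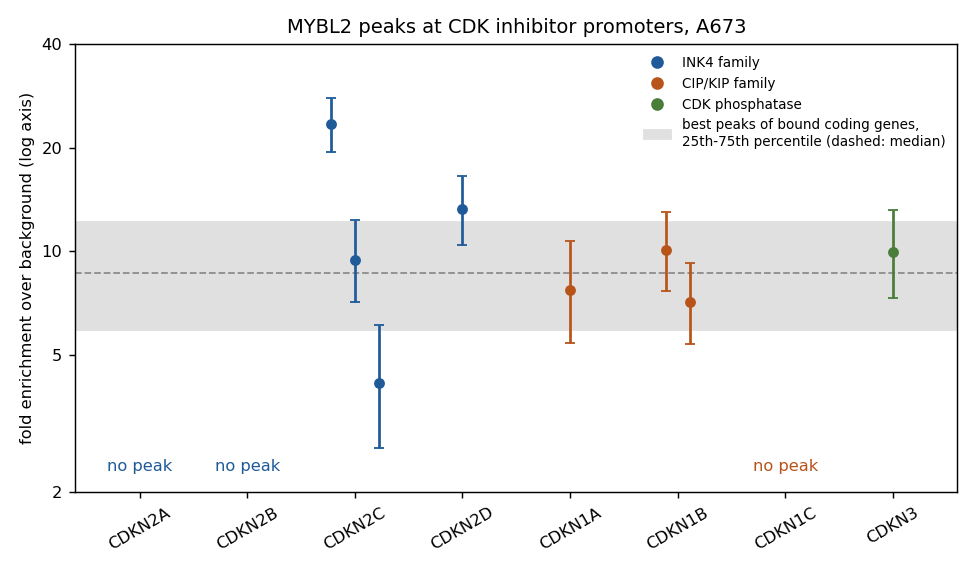
Fold enrichment (log axis) of every promoter peak at the 8 genes, with exact Poisson 95% intervals of the summit pileup as bars; the grey band and dashed line give the 25th to 75th percentiles and the median of the best promoter peaks of protein-coding genes that have one. CDKN2C holds both the strongest peak, at 23.4, and the weakest, at 4.15, and 3 genes hold no peak.

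Among INK4 genes, CDKN2C (chr1:51426417-51440306, plus strand), which encodes the inhibitor p18, carried 3 promoter peaks. The strongest (chr1:51425385-51426536) had a summit pileup of 123 fragments (95% interval 102.2 to 146.8) over a background of 4.30 and a fold enrichment of 23.4 (19.5 to 27.9). It ranked 378 in the whole list, and 96.2% of protein-coding genes with a promoter peak had a weaker best peak. Its summit lay 430 bp upstream of the nearest CDKN2C TSS but 9930 bp upstream of the canonical TSS, and the same peak covered the promoter of FAF1, a gene of ubiquitin-dependent protein turnover that starts on the opposite strand. The peak can thus not be attributed to CDKN2C rather than FAF1.

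The other CDKN2C peaks lay closer to the canonical TSS. The second (chr1:51433628-51435334) had a pileup of 53 (39.7 to 69.3) and a fold enrichment of 9.45 (7.13 to 12.3), with its summit 1700 bp upstream of the canonical TSS and 161 bp upstream of another TSS of the gene. It was shared with the lncRNA ENSG00000290102. The third (chr1:51435442-51435958) was the only one at the promoter of CDKN2C alone. It had a pileup of 23 (14.6 to 34.5), a fold enrichment of 4.15 (2.69 to 6.14) and a summit 163 bp upstream of the canonical TSS, and its strength was close to the median of 3.79 over all peaks. Hence, the fold enrichment decreased from the far to the near peak, and the intervals of these 3 peaks did not overlap. With the canonical TSS alone, the best CDKN2C peak was that of 9.45.

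CDKN2D (chr19:10677136-10679735, minus strand), which encodes the inhibitor p19, had 1 promoter peak (chr19:10679578-10680651). Its pileup was 74 fragments (58.1 to 92.9) over a background of 4.66, giving a fold enrichment of 13.2 (10.4 to 16.6), and 79.8% of protein-coding genes with a promoter peak had a weaker best peak. The summit lay 220 bp upstream of the nearest TSS and 300 bp upstream of the canonical one, at the E2F and CHR letters shown above, and no other gene's promoter shared it. CDKN2D also lay in the most peak-dense surroundings of the set, with 135 peaks within 500 kb, more than around 97.3% of protein-coding genes.

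Among CIP/KIP genes, CDKN1A (chr6:36644237-36655114, plus strand), the p53 target that encodes p21, had the weakest best peak of the 5 genes. The peak (chr6:36646241-36647182) had a pileup of 34 (23.6 to 47.5) over a background of 3.52 and a fold enrichment of 7.75 (5.43 to 10.7), and 41.8% of protein-coding genes with a promoter peak had a weaker best peak. Its summit was 22 bp downstream of the canonical TSS, in the 5′ UTR, and the peak was shared with DINOL, a lncRNA that starts 155 bp away. A pair of weaker peaks lay in the adjacent intron, with fold enrichments of 3.37 and 4.49 and pileups of 14 and 19. The printed CDKN1A window holds 3 GC box matches, all upstream of its TSS.

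CDKN1B (chr12:12838432-12875303, plus strand), which encodes p27, had 2 promoter peaks. The stronger (chr12:12869387-12871668) was centred on the canonical TSS, with a summit 94 bp downstream in the 5′ UTR, a pileup of 57 (43.2 to 73.9) and a fold enrichment of 10.07 (7.67 to 13). It spanned 2282 bp, against a median width of 319 bp over all peaks. Every promoter peak of the set was wider than that median, the narrowest being 517 bp at CDKN2C. The median width of promoter peaks alone was not computed. The other CDKN1B promoter peak (chr12:12849010-12849857) lay 21077 bp upstream of the canonical TSS and 56 bp upstream of a distal one. It was at the promoter of GPR19, an orphan receptor gene on the opposite strand. Its pileup of 54 (40.6 to 70.5) was similar, but over a background of 6.73, so that the fold enrichment was 7.11 (5.38 to 9.24). The intervals of both peaks overlapped.

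CDKN1B also carried the most peaks of the set, 6 over its annotated length, of which they covered 15.8%. The 4 that were not at a promoter, in introns and the 3′ UTR, had fold enrichments of 2.99 to 4.84. Immediately downstream of the gene followed a broader peak (chr12:12875340-12879368) with a fold enrichment of 15.9 (12.7 to 19.8). That peak lay at promoters of APOLD1 and of the lncRNA ENSG00000256658, and was thus not a CDKN1B promoter peak. CDKN2C was covered over 16.9% of its shorter length by 3 peaks, and CDKN1A over 14.7%, also by 3.

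CDKN1C (chr11:2904443-2907005, minus strand), the imprinted gene that encodes p57, had no promoter peak at any of its 6 TSSs. The nearest peak lay 6955 bp upstream of its canonical TSS and was weak, with a pileup of 15 (8.40 to 24.7) and a fold enrichment of 3.59 (2.11 to 5.78). The surroundings of CDKN1C were not poor in peaks, since 48 lay within 500 kb, more than around 65.7% of protein-coding genes, and its promoter had the highest CpG ratio of the 8 genes, 0.943. Of its neighbours, named here after their values were seen, TSSC4 had a best promoter peak of 24.5, NAP1L4 of 8.99, SLC22A18 of 3.79 and PHLDA2 of 3.59, while KCNQ1 and TRPM5 had none. Across the annotation, 2753 protein-coding genes (20.9% of those with CpG-rich promoters) likewise had no promoter peak.

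CDKN3 (chr14:54863567-54886936, plus strand) had 1 promoter peak (chr14:54863363-54864290), shared with no other gene. The pileup was 46 (33.7 to 61.4) over a background of 3.73 and the fold enrichment 9.93 (7.33 to 13.2), stronger than the best peak of 60.6% of protein-coding genes with a promoter peak. Its summit lay 25 bp upstream of the canonical TSS and 3 bp downstream of the nearest one, and the inverted CCAAT box shown above lay 56 bp from it. A pair of weak peaks followed in introns, with fold enrichments of 3.35 and 3.15.

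**Figure D2:**
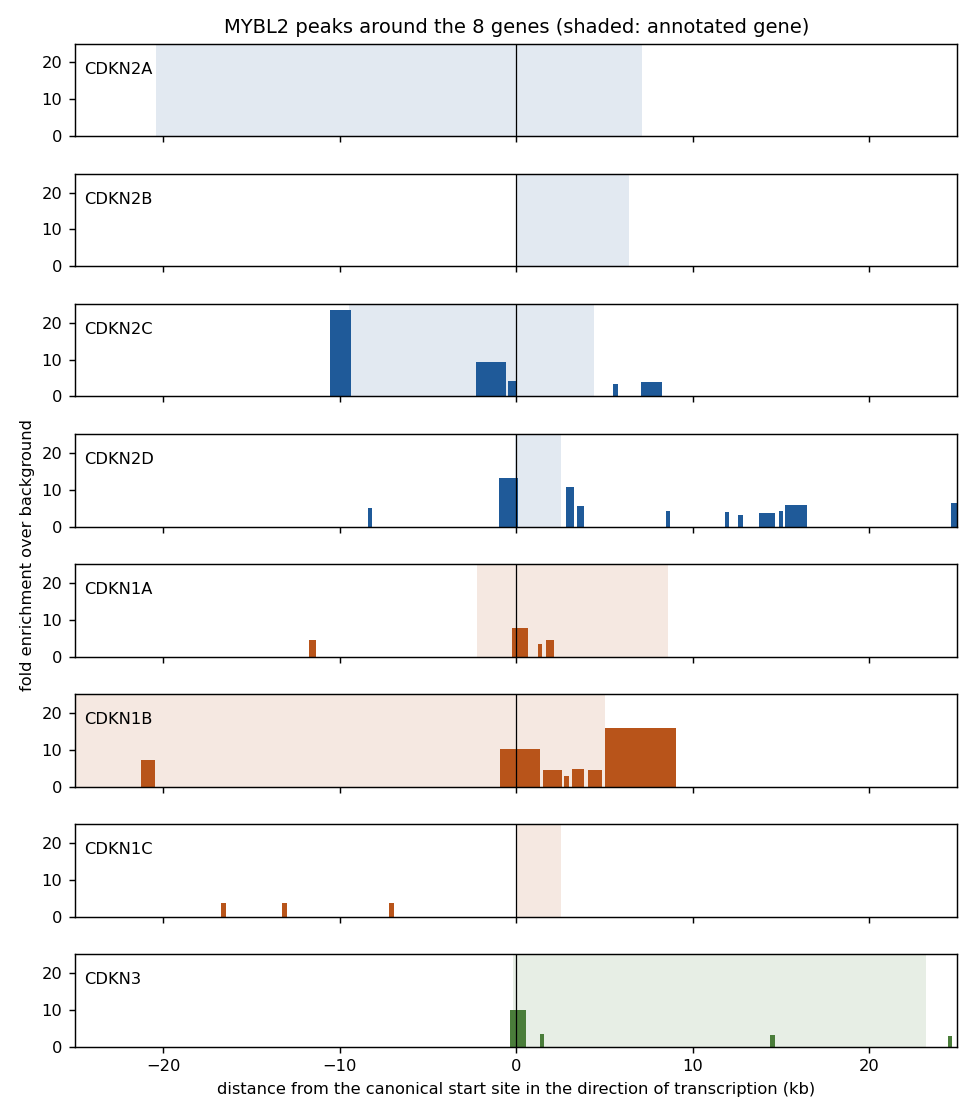
Peaks within 25 kb of the canonical TSS of each gene, drawn at their width (at least 0.25 kb) and fold enrichment, with transcription to the right and the annotated gene shaded. CDKN2A and CDKN2B have 0 peaks in this window, CDKN1C has 3, all upstream, and CDKN2D has 11.

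In all, the 8 genes had 8 promoter peaks, and 4 of these 8 also lay at the promoter of another gene. The share of such peaks among all promoter peaks was not computed, so whether this count is unusual cannot be told. The peaks not shared were those of CDKN2D and CDKN3, the stronger of CDKN1B and the weakest of CDKN2C. More than 1 promoter peak was present at 2 of the 8 genes, CDKN2C and CDKN1B, and at 27.9% of protein-coding genes. As to position, the summits of the best peaks of CDKN1A, CDKN1B and CDKN3 lay within 100 bp of the canonical TSS. The summit of the other CDKN1B promoter peak lay 21077 bp upstream of it. All promoter summits of CDKN2C and CDKN2D lay upstream of the canonical TSS, by 163 to 9930 bp. Summit positions over all genes were not computed, so these distances describe the listed peaks only.

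CDKN2A (chr9:21967751-21995300) and CDKN2B (chr9:22002902-22009304), neighbours on the minus strand, stood apart from the other genes in the extent of the region without peaks. CDKN2A encodes 2 tumour suppressors, the INK4 protein p16 and, from an upstream promoter, ARF, which protects p53 from MDM2, and CDKN2B encodes p15. None of the 13 TSSs of CDKN2A or the 3 of CDKN2B had a peak. The nearest peak lay 160991 bp from the canonical TSS of CDKN2A and 195439 bp from that of CDKN2B.

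Within 500 kb there were 6 peaks for either gene, and all 6 were on the side of the MTAP gene. Protein-coding genes had a median of 33 peaks within that distance, and 10.9% had 6 or fewer. The other members of the set ranged from 17 peaks at CDKN2C to 135 at CDKN2D. Of the 6 peaks, the farthest lay at the promoter of MIR31HG, the lncRNA host of a microRNA, with a pileup of 42 (30.3 to 56.8) and a fold enrichment of 9.66 (7.03 to 12.98). A further 3 lay at the promoter that MTAP, an enzyme gene of the methionine salvage pathway, shares with the lncRNA ENSG00000264545, with fold enrichments of 3.59, 9.44 and 4.23. The remaining 2, of 3.59 and 3.37, lay within MTAP beyond its promoter. Thus, the best peak at MTAP was close to the median of 8.67 for protein-coding genes with a promoter peak. No such median was computed for lncRNA genes, to which MIR31HG belongs. The 9 other genes with a TSS within 500 kb, CDKN2A and CDKN2B among them, had no promoter peak.

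**Figure D3:**
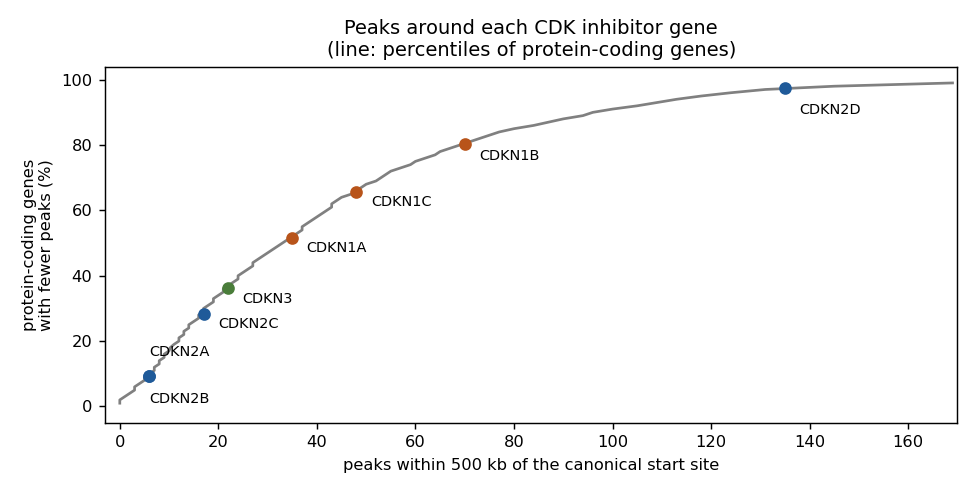
Number of peaks within 500 kb of the canonical TSS of each gene against the percentage of protein-coding genes with fewer, with the line giving the percentiles of all protein-coding genes. CDKN2A and CDKN2B coincide at 6 peaks, and CDKN2D lies at 135.

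The stretch without peaks began inside MTAP and ran over chr9:21813866-26891882, a length of 5.08 Mb without assembly gaps. It reached 161 kb to the MTAP side of the CDKN2A TSS and 4.92 Mb to the other side. Among 66931 stretches between neighbouring peaks it had rank 5 by length after assembly gaps were removed, and on chromosome 9 it was second to the stretch across the centromere. The median stretch was 2290 bp, and all chromosomes together had 23.6 peaks per Mb. Outside the stretch, many segments of 100 kb within 8 Mb of the CDKN2A TSS also held no peak.

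The stretch held the canonical TSSs of 6 protein-coding genes, CDKN2A, CDKN2B, DMRTA1, ELAVL2, IZUMO3 and TUSC1, of which 5 had CpG-rich promoters, and those of 21 lncRNA genes. The 4 longer stretches, of 5.68 to 12.2 Mb without gaps, held 1 to 8 CpG-rich protein-coding promoters. Longer peak-free stretches thus occurred at 4 other places, among them that across the centromere of chromosome 9. Why any of them lacked peaks was not tested. The background of the 6 nearby peaks was at its genome-wide floor of 3.45 in 5 of them, against 20.3% of all peaks. No pileup or input value was given between peaks. Absence of binding and loss of the DNA cannot be told apart from these files, since copy number was not measured.

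**Figure D4:**
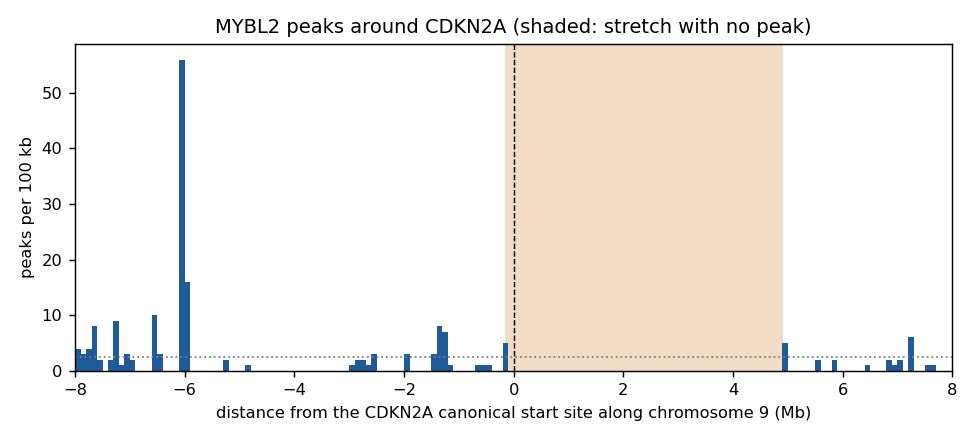
Peaks per 100 kb within 8 Mb of the CDKN2A canonical TSS (dashed line), with the mean of the chromosome dotted and the 5.08 Mb without a peak shaded. The shaded stretch begins 161 kb before the TSS and ends 4.92 Mb beyond it.

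To place the inhibitors beside the proteins they work with, 61 partner genes were examined in the same way, and 55 of them (90.2%) had a promoter peak, with a median best fold enrichment of 10.3. The share was 59.4% over all protein-coding genes and 79.1% over those with CpG-rich promoters. All 4 inhibited kinases had one, from 8.36 at CDK4 to 21.6 at CDK1, the mitotic kinase. Of their cyclins, 7 of 9 had one, from 4.72 at CCNE2 to 34.5 at CCND1, the D-type cyclin against which the INK4 proteins compete, whereas CCNE1 and CCNA1 had none. The pocket proteins, which the kinases phosphorylate, had peaks at 3 of 3 genes, from 10.99 at RB1 to 17.1 at RBL2.

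The next list was drawn up for the degradation of CIP/KIP proteins, and a role of each gene in it was not checked. A promoter peak was present at 14 of 14, with the weakest, 5.64, at DTL, the substrate receptor for p21 in S phase. The strongest, 21.3, was at CKS2, a small CDK-binding protein. Of the transcriptional activators of the inhibitor genes, 13 of 14 had one, from 3.33 at TP73 to 18.9 at KLF6, and KLF4 had none. Of the repressors, 8 of 11 had one, from 5.62 at CBX8 to 23.2 at EZH2, both polycomb components, and CBX7, TBX2 and TBX3 had none. The ARF and p53 axis had 6 of 6, from 9.44 at TRIP12 to 20.7 at HUWE1, both ubiquitin ligases. These lists were drawn up by hand with earlier results of the data known, so the count is a description.

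**Figure D5:**
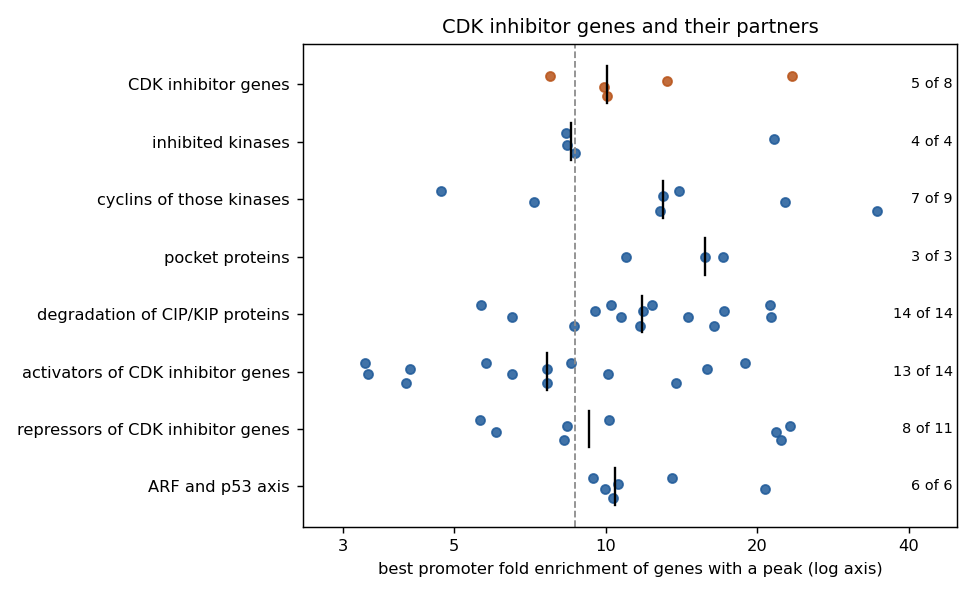
Best promoter fold enrichment (log axis) of each gene with a promoter peak, by group, with the group median as a black bar, the median of protein-coding genes with a peak dashed, and the number with a peak at the right. The inhibitor genes have peaks at 5 of 8 and lie between 7.75 and 23.4, within the range of their partners.

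The depth of the library limits what the missing peaks show. Where the background was at its floor of 3.45 fragments, the smallest pileup of any listed peak was 11 fragments, a fold enrichment of 2.70. A promoter with fewer fragments than that would not be listed, so weaker binding at CDKN1C was not detectable at this depth.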

How the data were processed

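MYBL2 ChIP and input DNA of A673 cells were sequenced as 100 bp single-end reads, per the study's methods, with 1 library each. The submitters' processing notes name Bowtie2 2.1.10 and MACS2 2.0.10 and the hg19 build. The deposited peak list gives, per peak, the authors' fold enrichment over the local background (a linear ratio), −log10 p, −log10 q, a score derived from q, and the summit. The list is described as cleaned, but how is not given in the sources used here.

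The summit pileup and background were recovered from the deposited fold enrichment and −log10 p as the whole number solving both (largest misfit 3.49e-05 in −log10 p), and checked on 5000 simulated peaks, of which 100% were recovered. Intervals are exact Poisson at 95% and cover counting error only. Fold-enrichment intervals hold the background fixed.

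Genes were 38690 GENCODE (version lifted to GRCh37, which has hg19 coordinates) protein-coding and lncRNA genes with 193738 TSSs. Summits were searched on both strands for AACGG (MYB), TTTGAA (CHR), CCAAT (NF-Y), CCGGAAGT (ETS core) and GGGCGG (GC box), and for E2F sites as TTTGGCGC or TTTCCCGC or TTTCGCGC or TTCCCGCC or TTGGCGC, whose matches can overlap. Sequences were read from GRCh37, with at most 30 bases of UTR each. Windows of the other promoters and peaks are not reported here. Python 3.11.15, pandas 2.3.3, scipy 1.17.1 and pysam 0.24.0 were used.

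Members and gene lists were chosen with earlier results of these data known. Named genes were all members with every promoter peak, genes sharing a promoter peak with a member, genes with a promoter peak within 500 kb of CDKN2A or CDKN2B, and in each partner group the genes with the strongest and weakest best peak and those without one. Alternatives were stricter peaks, other promoter windows or TSSs, other distances, and wider motif windows. No test was run, since each group had 1 library.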

Additional observations from a re-analysis of the deposited data

How the results depend on the processing

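No paired analysis was possible because the ChIP and the input were single libraries. A count, median or length was taken as unchanged when within 1.5 times the reported one. The best fold enrichment of a single gene was taken as unchanged when inside the counting interval of its reported peak. The 5 genes with a promoter peak and their median best fold enrichment were the same, and their promoter peaks numbered 7 to 9, under a −log10 q or a fold enrichment of at least 5, a 500 bp window, a window reaching 5000 bp upstream, and the summit in the window. With only the outermost TSS, 3 genes (CDKN2C, CDKN2D and CDKN3) and 3 peaks remained, since CDKN1A and CDKN1B have annotated starts upstream of the peaks at their canonical TSSs. A pair of settings were chosen after seeing the data. With the canonical TSS only, 5 genes kept a peak, and without peaks shared with another gene's promoter 4 peaks remained. Within 500 kb of CDKN2A or CDKN2B, 3 peaks had a −log10 q of at least 5 and 2 a fold enrichment of at least 5, while the peak-free stretch was 5.09 Mb under either limit. Pairs of gene and motif with a match at the best promoter summit, over 6 motifs and 5 genes, numbered 2 within 50 bp and 9 within 100 bp. The partner count, recomputed under 3 of these settings, was 53 with the limit on q, 50 with that on fold enrichment and 54 with the 500 bp window. Among protein-coding genes 49.6% had a promoter peak of fold enrichment at least 5. No share over all genes was computed under the other promoter settings. Whether a change in the counts there is particular to these genes thus cannot be told. Replicates were not left out, as there were none. Depth limits the list to pileups of at least 11 fragments at the background floor.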

Other observations

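CDKN2AIP, CDKN2AIPNL, CDK2AP1 and CDK2AP2, protein-coding genes with an inhibitor or its kinase in the name, were picked after their values were seen. Each had a promoter peak, as did 59.4% of protein-coding genes, so this describes only the genes picked. The lncRNA genes CDKN2A-DT and CDKN2B-AS1, also named after inhibitors, had none. Both lie inside the peak-free stretch over CDKN2A, so they are not observations separate from it. With lncRNA genes included, 41.9% of all genes had a promoter peak. CDKN2AIP, which encodes a partner of ARF, had a best fold enrichment of 19.1, above that of 92.8% of protein-coding genes with a promoter peak, although CDKN2A itself had no peak. The related CDKN2AIPNL had 10.8, and CDK2AP1 and CDK2AP2, which encode CDK2-associated proteins, had 7.86 and 5.00.

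Among the other long stretches without peaks, that of 8.88 Mb on chromosome X held 5 CpG-rich protein-coding promoters, and that of 4.93 Mb on chromosome 13 held 6. Copy number was measured at none of these, so binding and DNA content cannot be told apart there either.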
